A study of Saccharomyces cerevisiae with 15 samples.

Results

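The copper genes described here are the CUP1 array of budding yeast (Saccharomyces cerevisiae) and a few genes that act with it. They were chosen by name from a list of 8, after their RPKM values (reads per length of gene and size of library) in these libraries had been seen, and 7 of the 8 were found among 6662 entries. In the array these are CUP1-1 (YHR053C), CUP1-2 (YHR055C), YHR052W-A, YHR054W-A and RSC30 (YHR056C), and elsewhere in the genome CUP2 (YGL166W) and SOD1 (YJR104C). CRS5 (YOR031W), another metallothionein gene, is not analysed here.

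RNA was sequenced in 15 libraries of 11 genotypes to ask how the histone variant H2A.Z affects transcripts and their splicing. All strains were haploid, of the BY4741/2 background and auxotrophic for histidine, leucine and uracil, and were harvested in mid-log growth in rich glucose medium, with no copper treatment named. The wild type and the deletions of htz1, xrn1 and upf1 had 2 libraries each, with the wild-type libraries numbered 1 and 3. There was 1 library each of the swr1 deletion, of swr1 deleted together with xrn1 or upf1, of htz1 deleted together with xrn1 or upf1, of the prp43 DAmP allele, and of that allele with htz1 deleted. HTZ1 encodes H2A.Z and SWR1 the remodeller that places it in nucleosomes. Xrn1 degrades decapped mRNA from its 5′ end, Upf1 (gene listed as NAM7) drives decay of mRNA with a premature stop codon, and Prp43 takes spliceosomes apart and acts in ribosome assembly. DAmP alleles are built to lower the amount of an mRNA. The library preparations are described as independent, and the labels do not say whether cultures were separate, so p-values rest on the spread between preparations. Those of effects averaged over backgrounds also take in differences of the effect between backgrounds, since 7 genotypes have 1 library. Differences between libraries in strain markers, given below, enter that spread too.

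Metallothioneins are small proteins that bind metal ions through cysteines. In yeast, CUP1 is the main copper metallothionein and protects cells from excess copper. Its gene lies in a tandem array whose copy number differs between strains, and the copper-sensing activator Cup2 (also called Ace1) switches it on. Sod1, the copper- and zinc-dependent superoxide dismutase, is another target of Cup2 and removes superoxide. Rsc30 is a DNA-binding subunit of the RSC chromatin remodeller, and its 3′ end lies inside the repeated unit.

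The reference genome (R64, the sacCer3 build) holds 2 copies of the unit on chromosome VIII, spaced 1998 bases apart and identical over 1988 bases. CUP1-1 lies at chrVIII:212535-212720 and CUP1-2 at chrVIII:214533-214718, both on the minus strand, with 0 differing bases. YHR054C, at chrVIII:213185-214249, is a truncated copy of RSC30: all of its 1065 bases equal the 3′ end of RSC30, which lies at chrVIII:215183-217834. Of the 2652 bases of RSC30, 1069 are inside the repeat and 1583 outside it. CIC1 and CPR2 flank the array as genes outside the repeat. The noncoding RNA genes RUF5-1 and RUF5-2 cover CUP1-1 and CUP1-2 on the opposite strand, and the library kit (TruSeq V2) does not mark strand.

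The reading frame of CUP1-1, which is also that of CUP1-2, is shown for its cysteines and because reads of it fit both copies equally well. Cysteine codons are in capitals.
CUP1-1 reading frame: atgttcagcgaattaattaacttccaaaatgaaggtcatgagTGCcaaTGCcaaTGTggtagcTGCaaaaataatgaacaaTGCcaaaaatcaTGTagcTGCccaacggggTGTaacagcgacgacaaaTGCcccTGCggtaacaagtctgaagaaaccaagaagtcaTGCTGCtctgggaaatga
Of its 61 codons, 12 encode cysteine (9 TGC and 3 TGT), or 19.7% of codons against a median of 1.2% over 5731 annotated frames. SOD1, at chrX:622550-623014, has 2 cysteine codons among 154, and CUP2, at chrVII:191129-191806, has 12 among 225.

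The sequence before CUP1 and that before SOD1 are shown because Cup2 is known to act on both genes. Each window of 250 bases runs from 330 to 81 bases before the start codon on the minus strand, at chrVIII:212801-213050 for CUP1-1 and chrX:623095-623344 for SOD1. Capitals mark matches, on either strand, to TNNNGCTG, a loose form of the core recognised by Cup2.
CUP1-1 upstream: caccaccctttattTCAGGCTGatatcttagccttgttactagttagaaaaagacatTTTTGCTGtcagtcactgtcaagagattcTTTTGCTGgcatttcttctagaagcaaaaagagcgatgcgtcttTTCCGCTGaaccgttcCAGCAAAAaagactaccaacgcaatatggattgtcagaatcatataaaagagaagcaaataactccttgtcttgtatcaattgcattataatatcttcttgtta
SOD1 upstream: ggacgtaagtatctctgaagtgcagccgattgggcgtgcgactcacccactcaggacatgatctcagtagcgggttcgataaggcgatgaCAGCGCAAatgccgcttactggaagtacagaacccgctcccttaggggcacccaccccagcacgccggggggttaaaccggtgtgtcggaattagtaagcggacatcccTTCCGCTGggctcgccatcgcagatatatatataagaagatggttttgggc
The CUP1 window held 5 matches and the SOD1 window 2, with no overlap among them. At least 1 match occurred in 29.6% of 6020 such windows, at least 2 in 5.96% and at least 5 in 0.0831%. The CUP2 and RSC30 windows held 1 match each. The motif GAANNTTC, 1 arrangement of a minimal heat shock element, was searched because the heat shock factor also acts on CUP1. It reads the same on both strands. This arrangement had 0 matches in all of these windows and occurred in 10% of the 6020. The printed CUP1 window holds the same parts in the opposite order, which was not searched. The 0 therefore does not show that these windows lack a heat shock element. A match is a description of these letters, not a binding site.

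The targeted genes followed the labels. HTZ1 was at 0 to 0.2725 RPKM in the htz1 libraries and at 84.39 to 137.1 elsewhere. SWR1 was at 0 to 0.09715 RPKM in the swr1 libraries and at 23 to 94 elsewhere. XRN1 was at 0.1465 to 0.2902 RPKM in the xrn1 libraries and NAM7 at 0.1659 to 0.1916 in the upf1 libraries. PRP43 was at 42.71 and 55.36 RPKM in the prp43 DAmP libraries and at 84.84 to 157.3 elsewhere. Read totals implied by the RPKM values lay between 7160196 (swr1 upf1) and 57373616 (prp43 DAmP).

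Libraries differed in strain markers that the genotype labels do not name. MF(ALPHA)1, the α-factor gene, was at 1968 to 2942 RPKM in the 3 swr1 libraries and at 2262 in wild-type library 1; the other 11 libraries reached no more than 4.72. STE2, the α-factor receptor gene of the opposite mating type, was at 2.241 to 13.66 RPKM in those 4 libraries and at 219.1 or more elsewhere. MET17, a gene of methionine synthesis, was under 1 RPKM in 7 libraries, swr1 xrn1 and swr1 upf1 among them. LYS2, a gene of lysine synthesis, ranged from 0.01184 RPKM in wild-type library 3 to 84.47 in htz1 upf1, with a median of 0.1222. No term was fitted for LYS2. Reading frames of the ribosomal DNA took 12.2 to 21.3% of the summed RPKM in the 3 swr1 libraries, htz1 library 1 and htz1 upf1, and 0.0212 to 3.42% in the rest.

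CUP1 RNA was abundant in all libraries, highest in the wild type and lowest in swr1 xrn1. CUP1-1 was at 1153 and 1127 RPKM in the wild type, and at 1016 and 1098 in upf1. On the deposited scale these 4 libraries stood above all others. In xrn1 it was at 733.2 and 759.4, in htz1 xrn1 at 764.6 and in prp43 DAmP at 793. In htz1 it was at 716.7 and 346.4, in htz1 upf1 at 584.5 and in prp43 DAmP htz1 at 660.3. The 2 htz1 libraries differed from each other 2.07-fold, while the replicates of the other genotypes differed by at most 1.08-fold. In the swr1 deletion CUP1-1 was at 535.4, in swr1 upf1 at 398.7 and in swr1 xrn1 at 189.5. On the deposited scale the swr1 libraries took 3 of the 4 lowest places, with htz1 library 2 between swr1 upf1 and swr1 xrn1. With libraries scaled to the same median, swr1, at 689.5, stood above the xrn1 libraries, htz1 xrn1, htz1 library 2 and htz1 upf1. On that scaling prp43 DAmP, at 1048, stood above upf1 library 1, at 1012, and swr1 xrn1 was still lowest.

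From the lowest to the highest library CUP1-1 spanned 6.08-fold, and 18% of the 5923 entries that averaged 10 RPKM or more and had no value of 0 spanned more. The median of those entries was 3.61-fold. Without the swr1 xrn1 library CUP1-1 spanned 3.33-fold, and with all libraries scaled to the same median 12.5-fold. The mean of CUP1-1 was 1140 ± 18.6 RPKM in the wild type, 1057 ± 58.2 in upf1, 746.3 ± 18.6 in xrn1 and 531.5 ± 262 in htz1 (SD, n = 2 each). On this deposited scale the wild type and upf1 lay close to each other next to the gap below them, and htz1 had the widest spread. Genotypes with 1 library have no spread of their own.

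**Figure D1:**
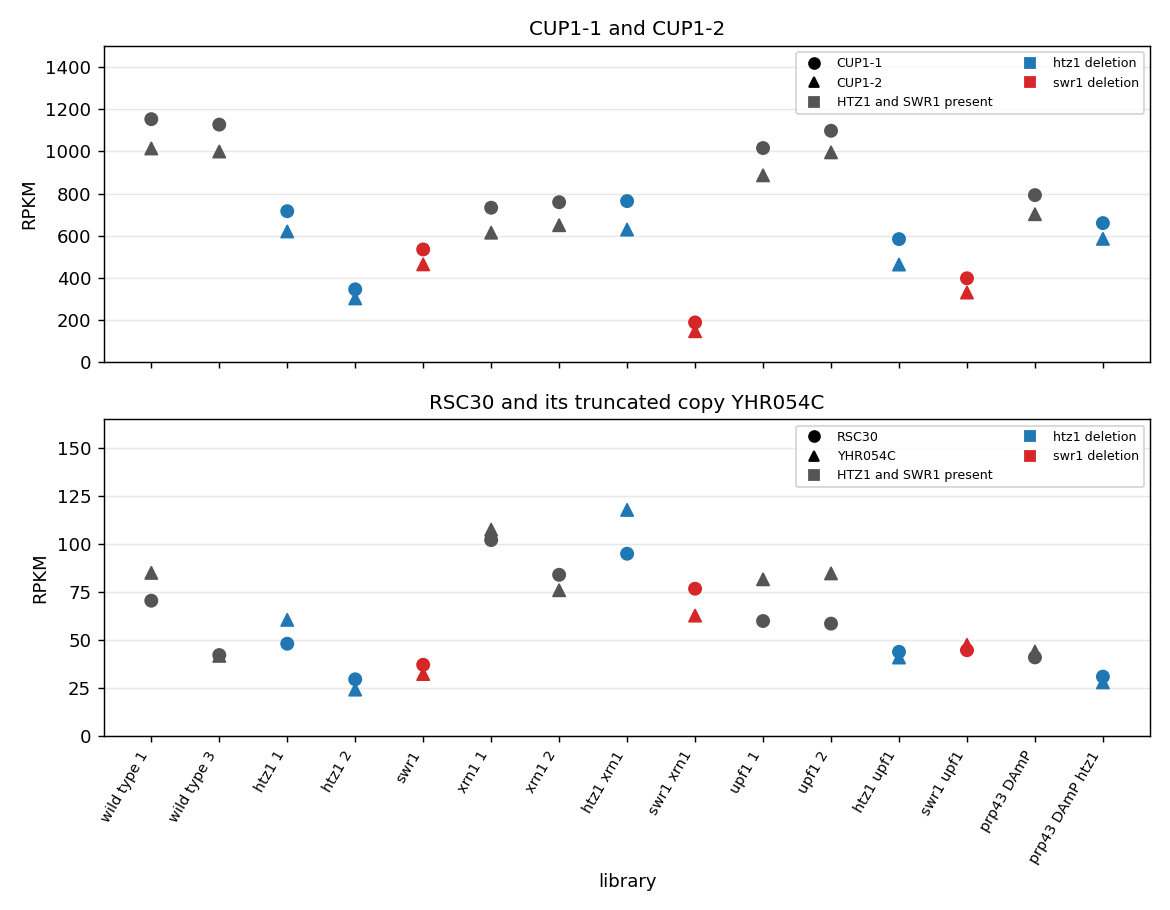
RPKM of CUP1-1 and CUP1-2 (top) and of RSC30 and YHR054C (bottom) in each of the 15 libraries, 1 point per library and gene, coloured by the state of HTZ1 and SWR1. CUP1-1 is above 1000 RPKM in the wild-type and upf1 libraries and at 189.5 to 535.4 in the swr1 libraries, while RSC30, on this deposited scale, is highest in the libraries without XRN1. The median log2 ratio over the entries used for scaling is highest in those libraries too.

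CUP1-2 followed CUP1-1 at a nearly fixed ratio. It ranged from 147.7 RPKM in swr1 xrn1 to 1014 in wild-type library 1, and CUP1-1 over CUP1-2 was 1.1 to 1.28 with a median of 1.15. Since the frames are identical, the split between them rests on how reads that map to several places were assigned, which is not given in the sources used here. YHR052W-A ranged from 180.9 to 1117 RPKM and YHR054W-A from 140 to 985. The R64 annotation used here does not list either entry, and the deposited values imply a length of 195 bases for each. The reads of YHR052W-A were 0.991 to 1.06 times those of CUP1-1, and those of YHR054W-A 0.958 to 1.04 times those of CUP1-2. The 4 entries therefore give a common measurement of the CUP1 locus, sense and antisense RNA together, and not 4 independent results.

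RSC30 and its truncated copy were ordered alike, and differently from CUP1. RSC30 was at 102.1 and 83.98 RPKM in xrn1, 94.97 in htz1 xrn1 and 76.74 in swr1 xrn1, the 4 highest of the 15 libraries on the deposited scale. The median log2 ratio to the mean library, over the 5923 entries used for scaling, was also highest in these 4. It was 0.612 to 0.7 there and at most 0.103 in the other libraries. With libraries scaled to the same median, RSC30 was highest in wild-type library 1, at 73.73, and upf1 library 2, at 60.84, stood above xrn1 library 2, at 51.93, and swr1 xrn1, at 49.9. On the deposited scale RSC30 lay between 29.51 (htz1 library 2) and 70.49 (wild-type library 1) in the other 11 libraries. YHR054C spanned 24.12 to 117.8 RPKM, with the lowest value in htz1 library 2 and the highest in htz1 xrn1. Their ratio, YHR054C over RSC30, was 0.817 to 1.45. Reads of the shared 3′ end cannot be assigned to one or the other. Spearman's rho over the 15 libraries was 0.93 between RSC30 and YHR054C, 0.28 between CUP1-1 and RSC30 and 0.51 between CUP1-1 and YHR054C. These correlations share library depth and scaling and are descriptions. CUP1-1 and YHR054C are both carried by each repeat unit. The RPKM of CUP1-1 over that of YHR054C, whose reads are shared with RSC30, ranged from 3.02 in swr1 xrn1 to 27 in wild-type library 3. The number of array copies in each strain was not measured, and RNA alone cannot tell fewer copies from less RNA per copy.

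CUP2, the activator gene, was a gene of modest level. It was at 29.33 and 30.99 RPKM in the wild type, 28.4 and 23.39 in htz1, and 75.97 and 79.92 in xrn1. In upf1 the replicates were at 36.11 and 88.81, a 2.46-fold difference. The remaining libraries lay between 25.13 (swr1 upf1) and 70.05 (swr1 xrn1). Spearman's rho with CUP1-1 was 0.24 over the 15 libraries.

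SOD1 was abundant, with a median of 977.2 RPKM beside 733.2 for CUP1-1, and was ordered differently. It was at 977.2 and 1211 RPKM in the wild type, 995.4 and 1394 in htz1, and 1386 and 1388 in the prp43 DAmP libraries with and without HTZ1. In xrn1 the replicates were apart, at 1044 and 642, and it was at 733.9 in htz1 xrn1 and 618.4 in swr1 xrn1. The lowest value, 445.6, was in upf1 library 2, while upf1 library 1 was at 994.9. In swr1 and swr1 upf1 it was at 914 and 871.6. Spearman's rho with CUP1-1 was 0.02.

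**Figure D2:**
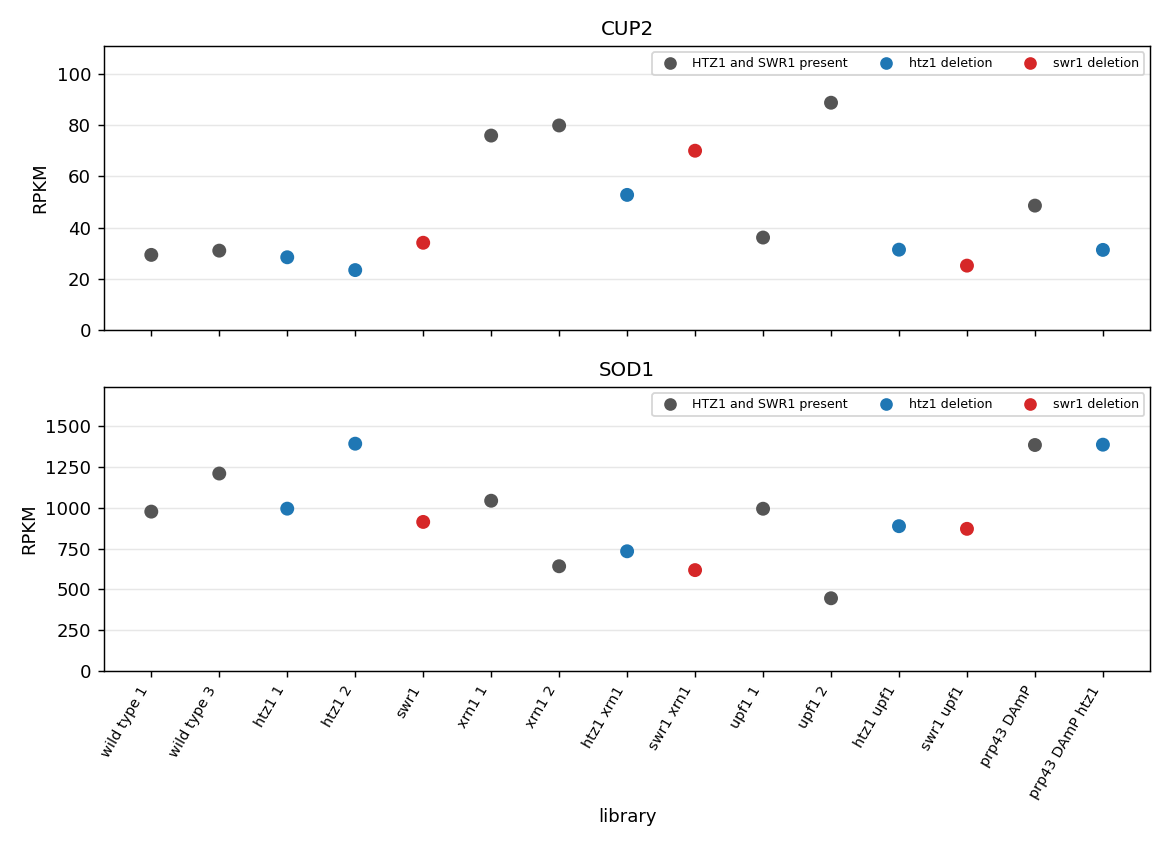
RPKM of CUP2 (top) and SOD1 (bottom) in each of the 15 libraries, 1 point per library, coloured by the state of HTZ1 and SWR1. CUP2 is at 52.78 to 79.92 in the 4 libraries without XRN1, and the upf1 replicates stand apart for both genes.

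Among 5919 genes that averaged 10 RPKM or more, the 5 outside the array with levels most like CUP1-1 over the 15 libraries were MKT1 (Spearman's rho 0.882), UTR4 (0.85), IRC24 (0.846), YIR036W-A (0.793) and GOT1 (0.782). MKT1, a post-transcriptional regulator, moved only between 137.2 and 175.7 RPKM. UTR4, an enzyme of methionine salvage, moved between 12.13 and 54.71 RPKM. IRC24 encodes a reductase, and GOT1 a Golgi transport protein. The 5th and 95th percentiles of rho over these genes were -0.37 and 0.40, and 2.38% of genes were more like CUP1-1 than YHR054C was.

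Loss of SWR1 was measured against its parents in 3 backgrounds, wild-type, xrn1-deleted and upf1-deleted (3 libraries against 6), and CUP1 RNA was lower without it in each. The RPKM of CUP1-1 in the mutant over the mean of its parent was 0.47 in the wild-type background, 0.377 with upf1 deleted and 0.254 with xrn1 deleted. On the deposited scale all 3 swr1 libraries, at 189.5 to 535.4 RPKM, lay below all 6 of their parents, at 733.2 to 1153. The share of all genes that separate in this way was not counted. With libraries scaled to the same median, swr1, at 689.5, lay above the xrn1 libraries, at 451.4 and 469.6. Each swr1 library still lay below the parent libraries of its own background. The averaged log2 change was -1.49 ± 0.16 for CUP1-1 (standard error; limma, adjusted p = 0.00229) and -1.57 ± 0.17 for CUP1-2 (adjusted p = 0.00229). YHR052W-A, at -1.49, and YHR054W-A, at -1.56, repeat the same reads. So 4 of the 7 members were called, all lower, against 4% of the 6495 genes tested in either direction and 3.53% in the lower direction. P-values are Benjamini-Hochberg adjusted over all genes tested, a call is an adjusted p under 0.05, and since the genes were listed with their levels known, these values are no independent support. The call remained when any of the 9 libraries was left out, with CUP1-1 between -1.69 and -1.25, and when values were rescaled without the rDNA reading frames (-1.46).

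Mating type moved with this comparison, since all 3 swr1 libraries and only 1 of the 6 others, wild-type library 1, were high in MF(ALPHA)1. With a term for MF(ALPHA)1 over 100 RPKM the change of CUP1-1 was -1.33 ± 0.30 and no longer passed (limma, adjusted p = 0.109); only 1 of all 6495 genes did. That term can be told from SWR1 only through wild-type library 1. CUP1-1 in the swr1 library over that library was 0.464, and over wild-type library 3, which is low in MF(ALPHA)1, 0.475. With a term for MET17 under 1 RPKM the change was -1.41 ± 0.21 (adjusted p = 0.0334). CUP1-1 was at 189.5 to 793 RPKM in the 7 libraries low in MET17 and at 535.4 to 1153 in the other 8. The part of these markers in the result was not tested beyond these fits.

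The other genes at the array did not pass in the SWR1 comparison. YHR054C, which lies inside the repeat, had a log2 change of -0.73 ± 0.22 (adjusted p = 0.111), and its ratios to the parents were 0.509, 0.684 and 0.571 in the wild-type, xrn1 and upf1 backgrounds. RSC30 had a change of -0.40 ± 0.17 (adjusted p = 0.251), with ratios of 0.658, 0.825 and 0.754. Outside the repeat, CIC1, a ribosome assembly factor gene, had a change of 0.32 ± 0.20 and CPR2, a cyclophilin gene, -0.24 ± 0.13 (adjusted p = 0.423 and 0.345). COX6, a cytochrome oxidase subunit gene, was at -0.23, MED6, a Mediator subunit gene, at 0.26, and YHR056W-A at -0.03. CUP2 had a change of -0.37 ± 0.30 and SOD1 -0.09 ± 0.27, so neither the activator nor its other target passed (adjusted p = 0.531 and 0.896).

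**Figure D3:**
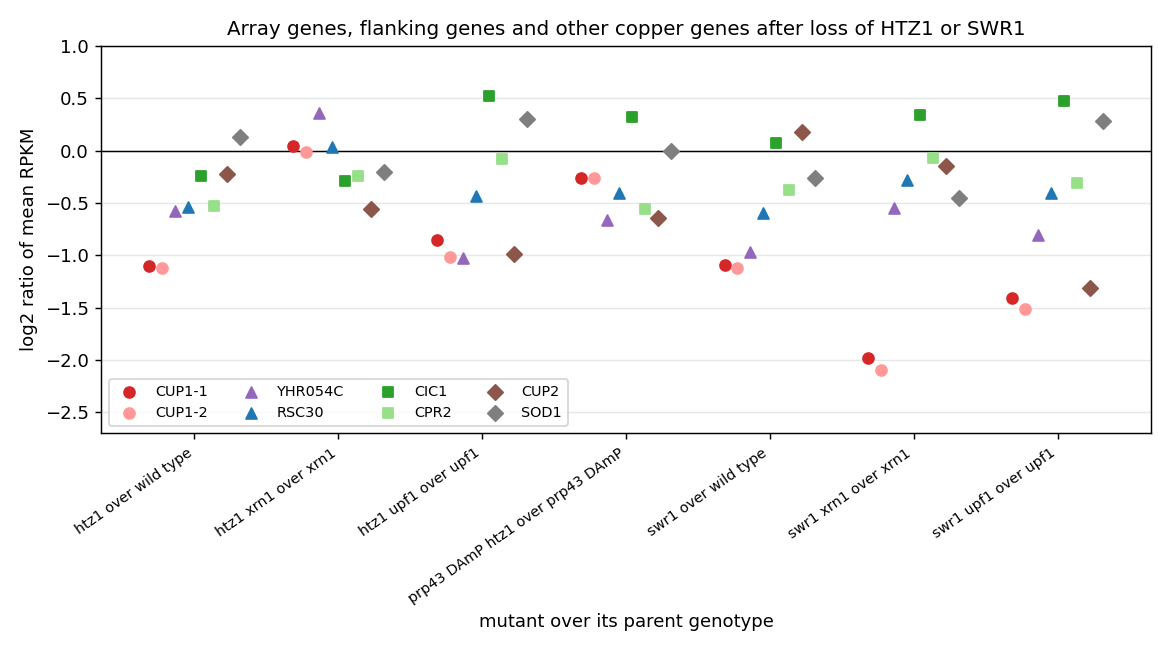
Log2 ratio of mean RPKM, each mutant over its parent genotype, for array genes (CUP1-1, CUP1-2, YHR054C, RSC30), flanking genes (CIC1, CPR2) and CUP2 and SOD1; 1 or 2 libraries stand behind each mean and no error is drawn. The CUP1 points lie lowest of the genes drawn in all 3 backgrounds of the swr1 deletion, and CUP1-1 in htz1 xrn1 over xrn1 is near 0.

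Loss of HTZ1 was measured in the same 3 backgrounds and in prp43 DAmP (5 libraries against 7). None of the 7 members was called, against 1.92% of all genes. CUP1-1 had a log2 change of -0.66 ± 0.22 (limma, adjusted p = 0.146) and CUP1-2 -0.71 ± 0.22 (adjusted p = 0.117). Their unadjusted p were 0.0106 and 0.00705. An unadjusted p under 0.05 was found for 5 members, whose CUP1 entries share reads, and for 1153 of all 6495 genes. The RPKM ratio of CUP1-1 to the parent was 0.466 in the wild-type background, 0.553 with upf1 deleted, 0.833 with prp43 DAmP and 1.02 with xrn1 deleted. Among libraries alike in MET17 and MF(ALPHA)1, htz1 library 1 over wild-type library 3 gave 0.636. For htz1 xrn1 over xrn1 library 2 it was 1.01, and for the prp43 DAmP pair 0.833. MET17 was at 245.3 RPKM in htz1 library 1 and 0.08163 in htz1 library 2. Its part in the gap between these replicates was not tested. The libraries without HTZ1, at 346.4 to 764.6 RPKM, overlapped those with it, at 733.2 to 1153. Without htz1 library 2 the change of CUP1-1 was -0.45. RSC30 had a change of -0.35 ± 0.17, CUP2 -0.51 ± 0.20 and SOD1 0.10 ± 0.21. The flanking genes CIC1, at 0.02, and CPR2, at -0.35, did not pass.

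The SWR1 and HTZ1 effects were also compared directly, a comparison chosen after their values were seen. Over the same 3 backgrounds (3 swr1 against 4 htz1 libraries), the log2 level of CUP1-1 without SWR1 minus that without HTZ1 was -0.73 ± 0.43 (limma, adjusted p = 0.634). None of the 7 members was called, against 0.4% of all genes, so a difference between the 2 losses was not shown. All 3 swr1 libraries were high in MF(ALPHA)1 and all 4 htz1 libraries low. Mating type and the gene lost therefore cannot be told apart in this comparison. None of the 35 pairs of a member and an interaction between mutations passed either. The genome-wide share called was 0.154% for HTZ1 by prp43 DAmP and 0% for the other 4 interactions. The nearest were the CUP1 entries in HTZ1 by XRN1, where the interaction of CUP1-1 was 1.23 ± 0.50 (limma, unadjusted p = 0.0371, adjusted p = 1).

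Loss of XRN1 raised RSC30 and CUP2 and lowered SOD1 on the deposited scale (4 libraries against 5). RSC30 changed by 0.99 ± 0.21 (limma, adjusted p = 0.00163), CUP2 by 1.16 ± 0.13 (adjusted p = 3.46e-05) and SOD1 by -0.53 ± 0.18 (adjusted p = 0.0218). These 3 of 7 members stand against 81.3% of all genes called (74.1% higher and 7.19% lower), with a median change of 0.99. Relative to that median RSC30 was at -0.01, CUP2 at 0.17 and SOD1 at -1.52. CUP1-1 changed by -0.44 ± 0.32 and did not pass (adjusted p = 0.229), which is -1.43 relative to the median. With libraries scaled to the same median, RSC30 (0.03) and CUP2 (0.21) no longer passed, while SOD1 (-1.5) and the 4 CUP1 entries, CUP1-1 at -1.41, were called lower. CUP1-1 was also called on the deposited scale without htz1 library 2 (-0.66) or without htz1 xrn1 (-0.90), and was at -0.12 without swr1 or without swr1 xrn1. SOD1 was lost without swr1 (adjusted p = 0.0577), swr1 xrn1 (0.0579), htz1 xrn1 (0.101), xrn1 library 2 (0.0685) or wild-type library 3 (0.0625). It was also lost with values rescaled without the rDNA reading frames (-0.33, adjusted p = 0.0607). At the array, YHR054C (0.98), YHR056W-A (1.00), COX6 (0.81), CPR2 (0.49) and MED6 (1.14) rose on the deposited scale, and CIC1, at 0.07, did not pass. Relative to the median of all genes CPR2 was at -0.50, COX6 at -0.19 and YHR054C at -0.01.

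Loss of UPF1 and the prp43 DAmP allele called none of the 7 members. For UPF1 (4 libraries against 5), 29.7% of all genes were called. CUP1-1 had a change of -0.08 ± 0.21, RSC30 0.18 ± 0.19, CUP2 0.40 ± 0.29 and SOD1 -0.47 ± 0.24, beside a median of 0.23 over all genes. The direction of CUP1-1 turned, to 0.03, without swr1, swr1 upf1 or htz1 library 1, and that of RSC30, to -0.14, on scaling. Of the genes around the array, CPR2 (0.58 ± 0.13) and MED6 (0.56 ± 0.18) rose. For prp43 DAmP (2 libraries against 4), 0% of genes were called by limma, 156 of 6495 had an unadjusted p under 0.05, and limma's voom on recovered reads also called 0. CUP1-1 had a change of -0.06 ± 0.33, CUP2 0.47 ± 0.19 and SOD1 0.29 ± 0.20. The CUP1-1 value was 0.05 on scaling and ranged from -0.52 to 0.41 as libraries were left out. Both prp43 DAmP libraries were under 1 RPKM in MET17, and of the 4 others only htz1 library 2 was. With a term for MET17 the CUP1-1 value lay above that range, as the closing section gives. That term can be told from prp43 DAmP only through htz1 library 2.

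**Figure D4:**
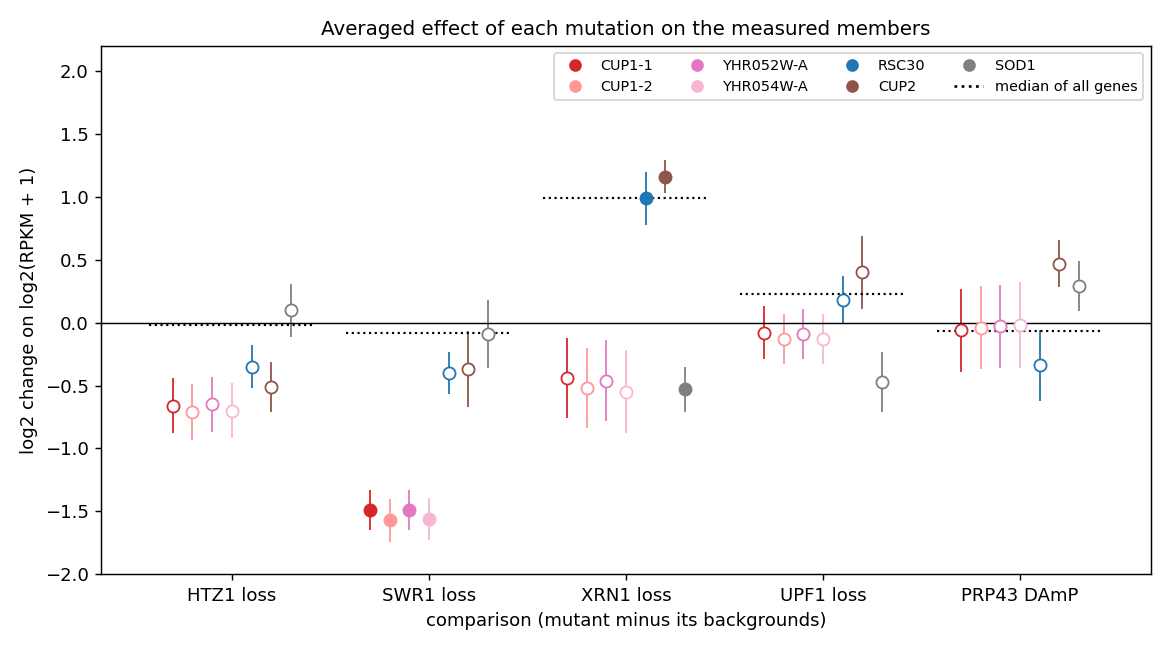
Log2 change on log2(RPKM + 1), averaged over backgrounds, with its standard error, for the 7 members in the 5 comparisons; filled points have an adjusted p under 0.05 and dotted lines mark the median of all genes tested. The 4 CUP1 entries, which share reads, are the filled points near -1.5 for loss of SWR1, and the median for loss of XRN1 is at 0.99.

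No gene on a separate list of copper handling was called when SWR1 or HTZ1 was lost. Of 21 genes for copper uptake, delivery and regulation, 0 were called for loss of SWR1, where 4% of all genes were, for loss of HTZ1, where 1.92% were, or in prp43 DAmP, where 0% were. Their median log2 change was 0.17 for loss of SWR1, against -0.08 over all genes, with 18 of the 21 above that median. It was 0.27 for loss of HTZ1, against -0.02, with 16 of the 21 above, and -0.01 in prp43 DAmP, against -0.07, with 13 above. For loss of XRN1 18 rose on the deposited scale and none fell, where 74.1% of all genes rose and 7.19% fell. The median of the list was 1.13 against 0.99 over all genes, and 12 of the 21 lay above the latter. Those with the smallest p were SLF1, an RNA-binding protein linked to copper homeostasis (2.00 ± 0.14), PCA1, a metal-transporting ATPase (2.47 ± 0.20), COX23, a protein of cytochrome oxidase assembly (1.62 ± 0.14), and MAC1, the activator used in copper scarcity (1.51 ± 0.15). For loss of UPF1 4 rose and 1 fell, where 29.7% of all genes were called, with a median of 0.16 against 0.23 and 7 of the 21 above it. The risen genes were COX19, another protein of cytochrome oxidase assembly (1.43 ± 0.15), PCA1 (1.60 ± 0.21), the copper transporter CTR3 (1.18 ± 0.21) and the metalloreductase FRE7 (2.10 ± 0.44). The fallen gene was COX17, a copper chaperone gene (-0.75 ± 0.23), named after its value was seen.

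Among 17 genes of oxidant defence, SOD1 not counted, none was called for loss of SWR1 (median -0.16, 5 of the 17 above that of all genes), HTZ1 (0.12, 14 above) or in prp43 DAmP (0.10, 15 above). Over all genes 4%, 1.92% and 0% were called, in that order. For loss of XRN1 6 rose and 7 fell on the deposited scale, where 74.1% of all genes rose and 7.19% fell. The median of the list was 0.05 against 0.99 over all genes, and 4 of the 17 lay above the latter. The peroxisomal catalase CTA1 (2.25 ± 0.14) and the activator YAP1 (1.76 ± 0.14) rose. The peroxiredoxin AHP1 (-1.43 ± 0.17) and the peroxidase HYR1 (-0.99 ± 0.15) fell, as SOD1 did. For loss of UPF1 2 rose and none fell, where 29.7% of all genes were called, with a median of -0.19 against 0.23 and 3 of the 17 above it: CTA1 (2.43 ± 0.14) and the glutathione peroxidase GPX1 (1.37 ± 0.19).

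Of 16 genes of the RSC complex other than RSC30, none was called for loss of SWR1 (median -0.02, 12 of the 16 above that of all genes), HTZ1 (-0.08, 6 above) or in prp43 DAmP (-0.08, 7 above). Over all genes 4%, 1.92% and 0% were called, in that order. For loss of XRN1 15 rose on the deposited scale, where 74.1% of all genes rose. The median of the list was 0.99, the same as over all genes, and 8 of the 16 lay above it. HTL1 (2.02 ± 0.16), LDB7 (1.02 ± 0.12), RSC58 (1.48 ± 0.18) and RSC1 (1.41 ± 0.17) had the smallest p. For loss of UPF1 4 rose, where 29.7% of all genes were called, with a median of 0.09 against 0.23 and 6 of the 16 above it: HTL1 (2.38 ± 0.12), ARP7 (0.59 ± 0.13), RSC1 (0.51 ± 0.16) and RTT102 (0.43 ± 0.14).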

How the data were processed

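The authors deposited RPKM values per gene for the 15 libraries. The submitters' processing notes name CASAVA, STAR 2.4.0 and sacCer3. The counter, strand setting and treatment of reads with several map positions: not given in the sources used here. Low values (under 100 reads) were whole reads within 0.1 read for 99.8 to 100.0% of entries, which gave the read totals. The table has 1 column that matched no sample and was not used, and 3 entries that share a name were left out.

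The test was limma (version 3.58.1, under R 4.3.3) on log2(RPKM + 1), with a trend on mean expression, background as a term and 6495 genes of at least 1 RPKM on average. The pseudocount understates changes of low genes. Interactions came from a model with a mean per genotype. On simulated data with 200 changed genes among 6495, 4-fold changes were recovered for 95.6% (HTZ1 and SWR1), 93.6% (XRN1 and UPF1) and 78.4% (PRP43). At 2-fold it was 83.6% for HTZ1, 62% for SWR1, 70% for XRN1, 68% for UPF1 and 22% for PRP43, and at 1.5-fold 46.6, 23.2, 27, 25.4 and 1.2% in that order. The simulated noise was drawn independently for each gene and library, with no shift shared by the genes of a library. The real libraries differ in such shifts and in strain markers, so these rates hold for the simulated setting only.

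Named are the members, the genes around the array, up to 4 called genes per list and comparison with the smallest p, and the 5 genes most like CUP1-1. The members and lists were chosen with earlier results of these data known. Sequences and positions come from the RefSeq copy of R64, read with Biopython 1.88. Alternatives are listed in the closing section.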

Additional observations from a re-analysis of the deposited data

How the results depend on the processing

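Alternatives were pseudocounts of 0.1 and 5, no filter, a mean of at least 10 RPKM, scaling to the same median log ratio, no trend, voom on recovered reads, the replicate block, and leaving out each library; chosen after seeing the data were rescaling without rDNA reading frames and terms for MET17 under 1 RPKM or MF(ALPHA)1 over 100 RPKM. The members called for SWR1 loss stayed 4 of 7 in these except with the MF(ALPHA)1 term, where 0 were called, and those for HTZ1 loss, UPF1 loss and prp43 DAmP stayed 0 in all that could be fitted. Interactions were refitted only with the pseudocounts, filters, scaling and no trend, and 0 members were called in each. Members called for XRN1 loss were 5 on scaling and 2 to 7 as libraries were left out. The fold between the highest and lowest library became, on scaling, 12.5 for CUP1-1, 14.2 for CUP1-2, 12.9 for YHR052W-A, 14.5 for YHR054W-A, 1.81 for RSC30 and 5.16 for SOD1. As libraries were left out it was 3.33 to 6.08 for CUP1-1, 3.34 to 6.87 for CUP1-2, 3.27 to 6.17 for YHR052W-A, 3.4 to 7.04 for YHR054W-A, 3.22 to 3.46 for RSC30, 3.42 to 3.8 for CUP2 and 2.25 to 3.13 for SOD1; the lowest CUP1 values came without swr1 xrn1. The causes of these shifts were not tested.

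Directions turned only for log2 changes that had not passed. On scaling these were RSC30 in UPF1 loss (-0.14) and, in prp43 DAmP, CUP1-1 (0.05), CUP1-2 (0.06), YHR052W-A (0.08) and YHR054W-A (0.08). With the MET17 term they were SOD1 in HTZ1 loss (-0.04), in UPF1 loss CUP1-1 (0.19), CUP1-2 (0.15), YHR052W-A (0.17) and YHR054W-A (0.14), and in prp43 DAmP CUP1-1 (0.81), CUP1-2 (0.82), YHR052W-A (0.83), YHR054W-A (0.86), RSC30 (0.12) and SOD1 (-0.04). With the MF(ALPHA)1 term they were SOD1 in SWR1 loss (0.05) and, in prp43 DAmP, CUP1-1 (0.01), CUP1-2 (0.03), YHR052W-A (0.04) and YHR054W-A (0.05). As libraries were left out, log2 changes crossed 0 for SOD1 in HTZ1 loss (-0.03 to 0.19) and SWR1 loss (-0.33 to 0.07) and for CUP2 in SWR1 loss (-0.65 to 0.01). They also did for CUP1-1 (-0.23 to 0.03) and YHR052W-A (-0.24 to 0.01) in UPF1 loss, and in prp43 DAmP for CUP1-1 (-0.52 to 0.41), CUP1-2 (-0.52 to 0.43), YHR052W-A (-0.51 to 0.45) and YHR054W-A (-0.53 to 0.48).

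Replicate numbers 1 and 2 did not pair the samples: the deviations of the replicates correlated at -0.27 (htz1 and xrn1), 0.13 (htz1 and upf1) and 0.19 (xrn1 and upf1) over 6495 genes. With the replicate block 0 members were called for HTZ1 and UPF1 loss and 2 for XRN1 loss, where SOD1 was at -0.37 (limma, adjusted p = 0.378). The block could not be fitted for SWR1 loss and prp43 DAmP, whose mutant libraries carry no number. Over all genes, calls ranged across these settings from 2 (the replicate block) to 364 for HTZ1 loss (125 as reported), 1 to 306 for SWR1 loss (260), 3894 to 5410 for XRN1 loss (5280), 1033 to 2450 for UPF1 loss (1926) and 0 to 2 for prp43 DAmP (0). As libraries were left out they ranged from 30 to 86, 43 to 282, 4852 to 5305, 1305 to 2229 and 0 to 138, in the same order. Shared reads at the array and 1 library in 7 of the 11 genotypes limit all values here.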
